A study of Homo sapiens with 6 samples.

Results

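The genes of fatty acid synthesis, activation and oxidation were followed as a set of 36 members. They were chosen by symbol from the 50868 genes of the table, with earlier results of these data known. All 36 were found and passed the filter on low counts. They code for the enzymes that build, lengthen and desaturate fatty acids, those that couple them to coenzyme A, the carnitine shuttle, the mitochondrial oxidation steps, the PPAR receptors and 1 lipid droplet coat protein. In siNAMPT libraries 14 members (38.9%) were called higher than in siControl at an adjusted p under 0.05, beside 20.8% of all genes tested. Called lower were 4 members (11.1%), beside 21.9% of all genes tested. The change by fold was greatest for ACSL1, HADHB and SCD upward and for PPARG downward.

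B4G12 is labelled a human corneal endothelial cell line, and all 6 libraries came from this 1 established line. The siControl group (replicates 1 to 3) is labelled wild type and the siNAMPT group (replicates 1 to 3) NAMPT knockdown, and both had siRNA treatment. An siRNA is a short double-stranded RNA that lowers a matching transcript for a time, so the target gene itself was left in place. NAMPT is the rate-limiting enzyme of the pathway that remakes NAD from nicotinamide. The study asks what changes in these cells when NAMPT is depleted. No dose or time after transfection is labelled, and the replicates are not said to be separate cultures. The p-values therefore cover the spread among these 6 libraries alone, and that spread may be technical.

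Fatty acids are built in the cytosol from acetyl-CoA, which ATP citrate lyase supplies and acetyl-CoA carboxylase turns into malonyl-CoA for fatty acid synthase. To be burned, a fatty acid is first joined to coenzyme A, carried across the inner mitochondrial membrane on carnitine, and then shortened in repeated rounds of dehydrogenation, hydration, a second dehydrogenation and thiolysis. The first dehydrogenation passes electrons to the electron transfer flavoprotein and the second one reduces NAD, the cofactor that NAMPT helps to maintain. The corneal endothelium is a pumping cell layer rich in mitochondria.

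NAMPT itself served as the check of the labels. Its level was 14.4, 14.9 and 16.4 FPKM (fragments scaled to gene length and library total) in siControl 1 to 3 and 2.36, 2.61 and 2.68 FPKM in siNAMPT 1 to 3. The siNAMPT libraries all lay far below siControl, by 83.5%, a log2 fold change of -2.60 (SE 0.07, adjusted p = 2.6e-06 by the quasi-likelihood test of edgeR, adjusted over all genes tested after Benjamini and Hochberg). An exact two-sided permutation test gave p = 0.1, the smallest that 3 against 3 allows. Total counts were 19510796 to 22364717 per library. The share of counts from mitochondrially encoded transcripts was 5.68% to 6.03% for siControl libraries and 6.89% to 7.04% for siNAMPT libraries. Of 15 corneal endothelial markers, 5 reached 1 FPKM in every library, ALCAM, CDH2, TJP1 and SLC4A11 among them. Another 8 stayed under 0.1 FPKM in every library, including CD200 and TFAP2B at 0. Of 12 markers of stratified or corneal epithelium, 9 reached 1 FPKM in every library, KRT14 (426 to 583 FPKM) and KRT5 (226 to 299 FPKM) among them, with KRT12 at 0. The epithelial markers summed to 982 to 1065 FPKM in siControl and 945 to 1050 FPKM in siNAMPT, and the endothelial ones to 155 to 156 and 138 to 154 FPKM. Single markers moved within these sums: mean FPKM went from 18.6 to 67.9 for KRT15, from 5.38 to 7.87 for TP63, from 22.6 to 11.5 for DSG3 and from 26.2 to 14.01 for CDH2. Fibroblast or keratocyte markers summed to 1.18 to 1.36 FPKM in siControl and 1.99 to 2.16 FPKM in siNAMPT. The low endothelial markers and the high keratins go against the labelled cell type, so the cells are called B4G12 cells here. The part of these marker levels in the results on the members was not tested. Adipocyte and hepatocyte markers, cell types that also carry much fatty acid metabolism, summed to under 1 FPKM, with ADIPOQ, LEP, LPL, ALB and TTR at 0.

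Of the 36 members, 14 (38.9%) were called higher in siNAMPT at an adjusted p under 0.05, where 20.8% of the 15213 genes tested were called higher. Another 4 members (11.1%) were called lower, against 21.9% of all genes tested, and 18 were not called. Because the members were chosen with earlier results of these data known, these shares are not independent of the values. The members' median log2 fold change was 0.19, beside 0.0002 over all genes tested, and 29 of 36 were positive. By FPKM alone, 21 members had every siNAMPT library above every siControl library, a separation seen in 28.5% of all genes tested. In 6 members every siNAMPT library was lower, against 26.4% of all genes tested, and in 9 the groups overlapped. The count of members called higher was 9 without siControl 2 and 9 without siNAMPT 2. In bulk RNA, fewer cells of a type and less RNA per cell cannot be told apart. The members differed in level by more than they changed: SCD stood at 461 FPKM in siControl and ACAA2 at 0.104 FPKM.

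**Figure D1:**
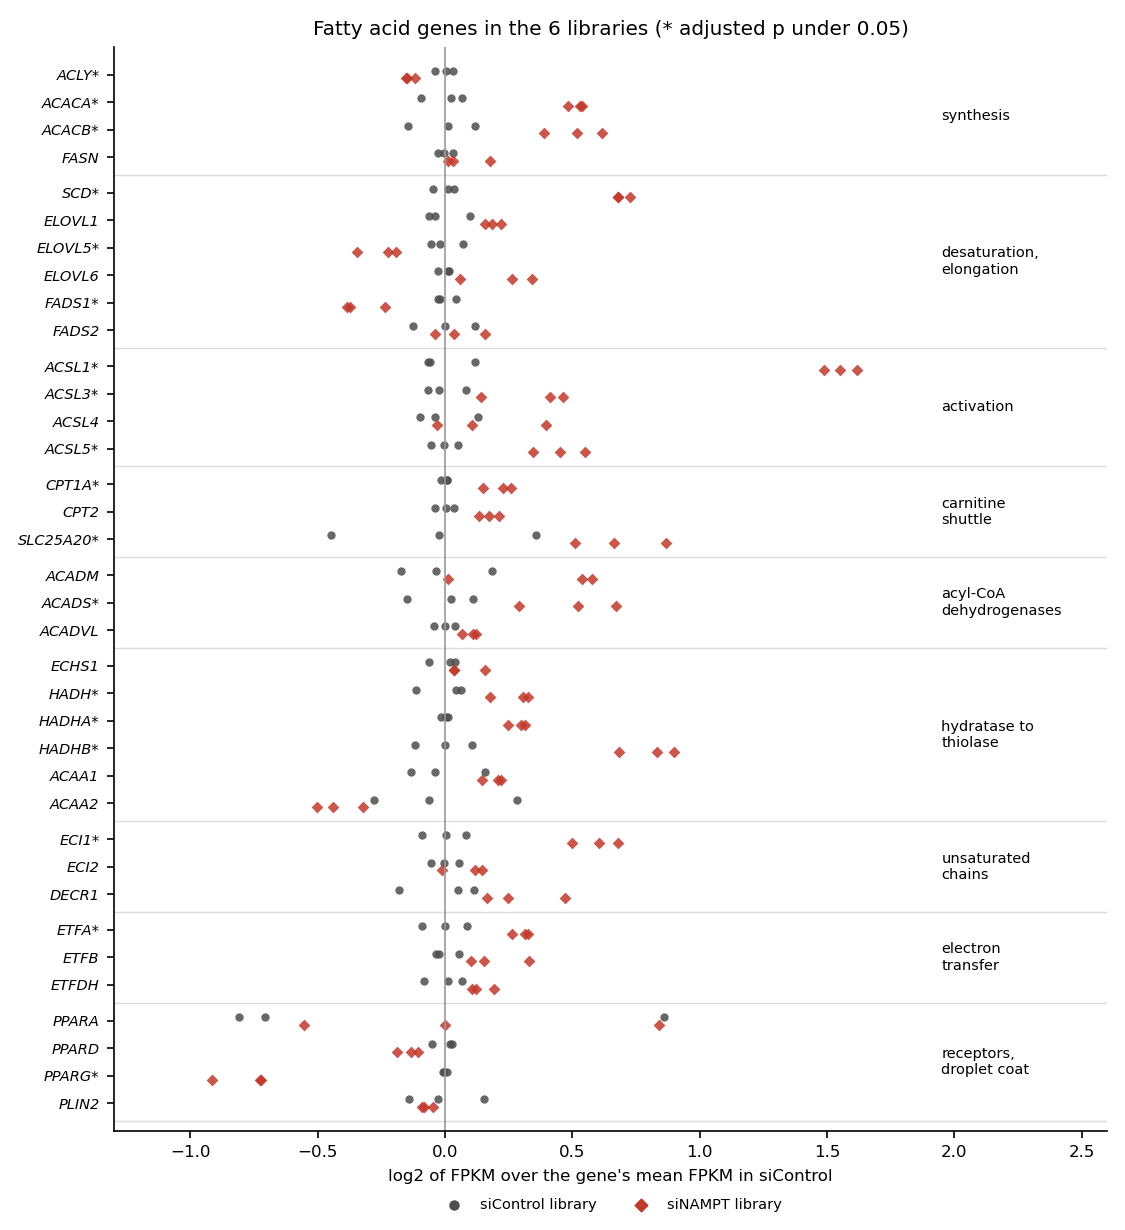
FPKM of each member in every library, as log2 of the value over the gene's mean in siControl (x axis), with members in rows by role, grey circles for the 3 siControl and red diamonds for the 3 siNAMPT libraries; an asterisk marks an adjusted p under 0.05 (edgeR). The ACSL1 diamonds lie farthest to the right, those of PPARG farthest to the left among called members, and the PPARA libraries of both groups are spread over the row.

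Among the 4 genes that supply and use malonyl-CoA, 2 rose, 1 fell and FASN was not called. Over all genes tested 20.8% rose and 21.9% fell. ACACA, the cytosolic acetyl-CoA carboxylase that commits carbon to fatty acid synthesis, lies at chromosome 17, 37084988 to 37406818 (GRCh38). It was at 11.2, 12.1 and 12.5 FPKM in siControl and at 16.6, 17.3 and 17.2 FPKM in siNAMPT. The siNAMPT libraries all lay above siControl and close to each other, a rise of 41.1% (log2 fold change 0.50, SE 0.05, edgeR adjusted p = 0.000342). ACACB, the carboxylase bound to the outer mitochondrial membrane whose malonyl-CoA restrains the carnitine shuttle, was far less abundant per length than ACACA. Its FPKM values were 0.175, 0.146 and 0.163 in siControl and 0.231, 0.247 and 0.211 in siNAMPT. The groups did not overlap and the log2 fold change was 0.49 (SE 0.14, edgeR adjusted p = 0.0253). These values rest on 63 to 104 counts per library, and the adjusted p was 0.0581 to 0.0862 when siControl 2, siControl 3, siNAMPT 1 or siNAMPT 2 was left out. The ACACB call was also lost with DESeq2 (adjusted p = 0.0742) and in edgeR with no filter on low counts (adjusted p = 0.0554).

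ACLY, which splits citrate to give cytosolic acetyl-CoA, went the other way. Its level was 54.6, 57.4 and 56.3 FPKM in siControl and 50.6, 50.4 and 51.7 FPKM in siNAMPT. The groups were apart by a narrow gap, and ACLY fell by 10.5% (log2 fold change -0.16, SE 0.04, edgeR adjusted p = 0.0195). That call was lost without siControl 2, siNAMPT 2 or siNAMPT 3 (edgeR adjusted p = 0.0519 to 0.0815). FASN, the multifunctional synthase that assembles palmitate, stood at 76.4, 78.2 and 75.2 FPKM in siControl and 86.5, 77.3 and 78.2 FPKM in siNAMPT. Only siNAMPT 1 was clearly above the siControl libraries, the other siNAMPT values overlapped them, and the log2 fold change of 0.06 (SE 0.06) was not called. Without siNAMPT 1 it was -0.0044. The ratio of ACACA to FASN, computed from FPKM within each library, was 0.146, 0.155 and 0.166 in siControl and 0.192, 0.224 and 0.220 in siNAMPT. The ratio was higher in 3 of 3 siNAMPT libraries, by 0.44 on the log2 scale (exact two-sided permutation p = 0.1, the smallest possible, adjusted p = 0.125 over 5 ratios). This pair too was chosen after values had been seen, so its p is not independent of them.

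Desaturation and elongation gave 1 member higher and 2 lower of 6 (16.7% and 33.3%, beside 20.8% and 21.9% of all genes tested). SCD, the stearoyl-CoA desaturase that places the first double bond into saturated acyl chains, was the most abundant of all 36 members. Its level was 446, 472 and 466 FPKM in siControl and 739, 763 and 738 FPKM in siNAMPT. Every siNAMPT library exceeded every siControl library by a wide margin, a rise of 59.7% (log2 fold change 0.68, SE 0.04, edgeR adjusted p = 2.8e-05). FADS1, the delta-5 desaturase of polyunsaturated fatty acids, moved in the opposite direction, from 1.19, 1.14 and 1.13 FPKM in siControl to 0.890, 0.883 and 0.981 FPKM in siNAMPT. The groups did not overlap, and FADS1 fell by 0.35 on the log2 scale (SE 0.08, edgeR adjusted p = 0.0114). FADS2, the delta-6 desaturase at the same locus, had overlapping groups, 0.866 to 1.02 FPKM in siControl and 0.921 to 1.05 FPKM in siNAMPT, and was not called (log2 fold change 0.03, SE 0.10). FADS1 lies wholly inside the FADS2 locus on chromosome 11 (29694 shared bases), and FEN1 overlaps FADS2 by 4265 bases with 1960% of its counts. Whether counting used strand is not given in the sources used here. Reads shared by FADS1 and FADS2, or by FADS2 and FEN1, therefore cannot be told apart. The ratio of SCD to FADS1 was 375 to 415 in siControl and 753 to 864 in siNAMPT, a log2 difference of 1.03 (exact two-sided permutation p = 0.1, the smallest possible, adjusted p = 0.125 over 5 ratios). This pair was chosen after values had been seen. With SCD higher and FADS1 lower in every siNAMPT library, that p was fixed in advance and adds no evidence.

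The elongases differed in direction. ELOVL5, which lengthens polyunsaturated chains, was at 19.0, 18.5 and 20.2 FPKM in siControl and 15.1, 16.8 and 16.5 FPKM in siNAMPT. All siNAMPT values were lower, and ELOVL5 fell by 17.3% (log2 fold change -0.27, SE 0.06, edgeR adjusted p = 0.0091). ELOVL6, which lengthens palmitate to stearate, was at 6.22, 6.39 and 6.41 FPKM in siControl and 6.61, 7.61 and 8.02 FPKM in siNAMPT. Its groups did not overlap but the siNAMPT libraries were spread, and the log2 fold change of 0.20 (SE 0.08) was not called (edgeR adjusted p = 0.0622). It was called without siNAMPT 1 (log2 fold change 0.28, edgeR adjusted p = 0.0120). ELOVL1, which works on saturated chains of great length, had a log2 fold change of 0.17 (SE 0.07) with separate groups and was not called by edgeR (adjusted p = 0.0847), though limma on log2(FPKM + 1) called it (adjusted p = 0.0467).

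Sequence before the start sites is shown for SCD because it is the member with the highest level, and for ACSL1 because it changed most by fold. The letters are those of RefSeq (GRCh38.p14), 250 bases that end just before a RefSeq transcript start, 5′ to 3′ on the gene's strand. ACSL1 has further RefSeq starts. SCD lies at chr10:100346983-100347232 (+) and ACSL1 at chr4:184825969-184826218 (-). The ACSL1 bases fall wholly inside the annotated ACSL1 locus, and the SCD bases from 100347124 on fall inside the SCD locus. Capitals mark CCAAT boxes (CCAAT) and GC boxes (GGGCGG), read on either strand.
SCD: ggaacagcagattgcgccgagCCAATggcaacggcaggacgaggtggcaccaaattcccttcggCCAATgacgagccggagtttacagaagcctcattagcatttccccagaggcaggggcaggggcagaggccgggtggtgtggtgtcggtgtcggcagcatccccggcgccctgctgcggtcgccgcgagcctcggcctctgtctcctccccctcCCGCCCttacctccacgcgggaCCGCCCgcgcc
ACSL1: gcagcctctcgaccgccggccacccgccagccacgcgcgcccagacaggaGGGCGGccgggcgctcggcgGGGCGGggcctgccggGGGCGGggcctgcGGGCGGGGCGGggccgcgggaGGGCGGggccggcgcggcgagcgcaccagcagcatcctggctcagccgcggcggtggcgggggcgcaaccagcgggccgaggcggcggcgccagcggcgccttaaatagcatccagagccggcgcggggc
The SCD stretch held 2 CCAAT boxes, at bases 22 and 65, and 2 GC boxes, at bases 218 and 240. The ACSL1 stretch held 6 GC boxes, of which those at bases 100 and 105 overlap by 1 base, and no CCAAT box.

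Activation, the coupling of a fatty acid to coenzyme A, gave 3 of 4 members higher and none lower. Over all genes tested 20.8% were called higher and 21.9% lower. ACSL1, a long-chain acyl-CoA synthetase (chromosome 4, 184755595 to 184826818), was at 0.850, 0.854 and 0.966 FPKM in siControl and 2.61, 2.497 and 2.74 FPKM in siNAMPT. All siNAMPT libraries stood far above siControl, and ACSL1 rose 2.90-fold (log2 fold change 1.53, SE 0.08, edgeR adjusted p = 2.16e-05), on 252 to 841 counts per library. ACSL5, the isoform tied to mitochondria and the endoplasmic reticulum, was at 3.55, 3.68 and 3.83 FPKM in siControl and 4.69, 5.41 and 5.05 FPKM in siNAMPT. Its groups were separate and ACSL5 rose by 34.9% (log2 fold change 0.43, SE 0.07, edgeR adjusted p = 0.00298). The ACSL5 locus overlaps ZDHHC6 by 3953 bases, and ZDHHC6 had 144% of its counts. Without a known strand of counting, reads from that overlap cannot be assigned to ACSL5 or ZDHHC6. ACSL3, found on the endoplasmic reticulum and on growing lipid droplets, was at 12.6, 13.0 and 13.96 FPKM in siControl and 14.5, 18.2 and 17.6 FPKM in siNAMPT. ACSL3 rose by 0.33 on the log2 scale (SE 0.09, edgeR adjusted p = 0.0185), with siNAMPT 1 only just above siControl 3. Its call was lost without siControl 1, siControl 2, siNAMPT 2 or siNAMPT 3 (edgeR adjusted p = 0.0576 to 0.0626). ACSL4, which prefers arachidonate, had overlapping groups, 6.57 to 7.68 FPKM in siControl and 6.87 to 9.26 FPKM in siNAMPT, and was not called (log2 fold change 0.15, SE 0.11). The ratio of ACSL1 to ACSL3 was 0.0659 to 0.0692 in siControl and 0.137 to 0.180 in siNAMPT. That is a log2 difference of 1.21 (exact two-sided permutation p = 0.1, the smallest possible, adjusted p = 0.125 over 5 ratios). This pair was chosen after values had been seen, with ACSL1 already known to rise most by fold, so its p adds no evidence. In siNAMPT ACSL1 was still the least abundant of the 4 synthetases per length.

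**Figure D2:**
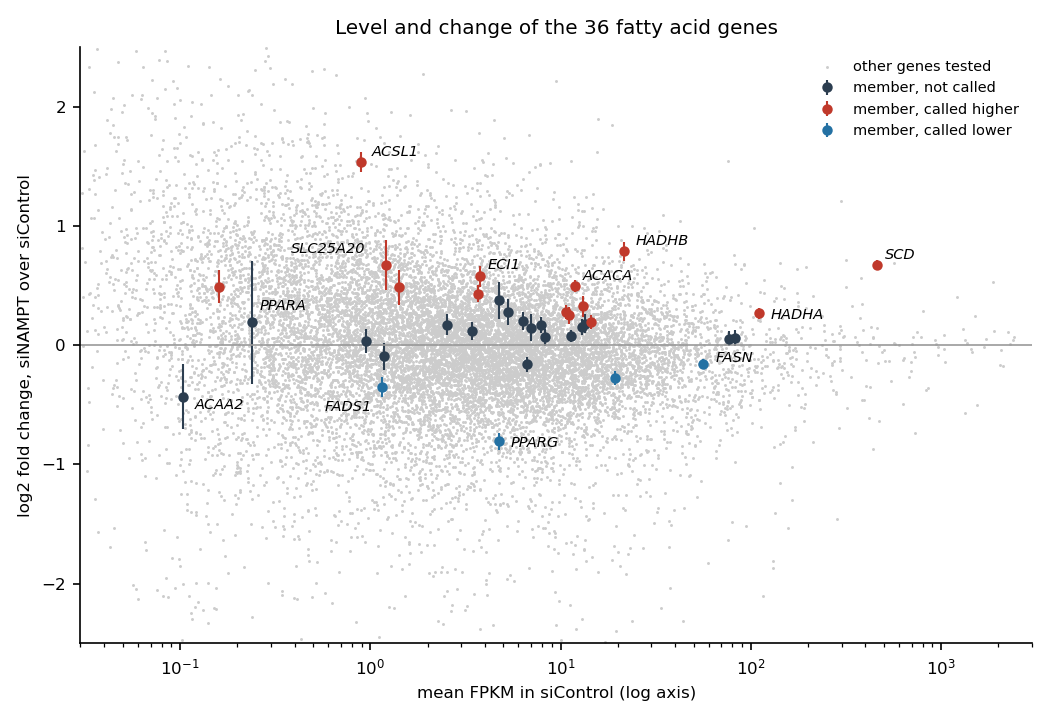
Mean FPKM in siControl (x axis, log scale) against the log2 fold change of siNAMPT over siControl (y axis) for the 36 members, with bars of 1 SE, over the other genes tested in grey (those beyond 2.5 in either direction lie outside the axes). Called members spread over the range of levels, from ACACB near the left edge to SCD at the right.

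The carnitine shuttle and the oxidation steps together held 18 members, of which 8 rose (44.4%, beside 20.8% of all genes tested) and none fell (beside 21.9%). A positive log2 fold change was found in 17 of the 18, beside 50.02% of all genes tested, and the median was 0.22. Without ACAA1, whose product works in peroxisomes, 8 of 17 rose, 16 were positive and the median was 0.25. The share of counts from mitochondrially encoded transcripts was also higher in siNAMPT (6.89% to 7.04% against 5.68% to 6.03%), and its part in these results was not tested. Of the shuttle, CPT1A, the outer-membrane transferase that sets the rate of entry, was at 14.5, 14.2 and 14.5 FPKM in siControl and 17.2, 16.9 and 15.97 FPKM in siNAMPT. The siControl values lay close together and below every siNAMPT value, and CPT1A rose by 14.4% (log2 fold change 0.19, SE 0.06, edgeR adjusted p = 0.0279). The call was lost when any library except siNAMPT 3 was left out (edgeR adjusted p = 0.0551 to 0.0909). SLC25A20, the carrier that swaps acylcarnitine for carnitine across the inner membrane, was at 1.18, 0.883 and 1.54 FPKM in siControl and 2.20, 1.91 and 1.72 FPKM in siNAMPT. Its siControl libraries were scattered, with siControl 3 near siNAMPT 3. SLC25A20 rose by 0.67 on the log2 scale (SE 0.21, edgeR adjusted p = 0.0347), on 81 to 210 counts per library. Leaving out siControl 1, siControl 2, siNAMPT 1 or siNAMPT 2 ended that call (edgeR adjusted p = 0.0714 to 0.0984). CPT2, which returns the acyl group to coenzyme A inside the matrix, had separate groups, 12.5 to 13.2 FPKM and 14.1 to 14.9 FPKM, but was not called by edgeR (log2 fold change 0.15, SE 0.06, adjusted p = 0.0910). Limma on log2(FPKM + 1) called it (adjusted p = 0.0263).

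The acyl-CoA dehydrogenases, which carry out the first step for chains of different length, gave 1 of 3 members higher (beside 20.8% of all genes tested). ACADS, for short chains, was at 1.53, 1.28 and 1.44 FPKM in siControl and 2.25, 1.73 and 2.03 FPKM in siNAMPT. The groups did not overlap, and ACADS rose by 0.49 on the log2 scale (SE 0.15, edgeR adjusted p = 0.0311), on 94 to 173 counts per library. That call was lost without siControl 2, siControl 3, siNAMPT 1 or siNAMPT 3 (edgeR adjusted p = 0.0710 to 0.0975). ACADM, for medium chains, was at 4.23, 4.66 and 5.42 FPKM in siControl and 4.81, 7.11 and 6.92 FPKM in siNAMPT. One siNAMPT library fell among the siControl values, and the log2 fold change of 0.38 (SE 0.15) was not called (edgeR adjusted p = 0.0855), while DESeq2 called it (adjusted p = 0.0458). Without that library, siNAMPT 1, it was 0.53 (edgeR adjusted p = 0.00982). The ACADM locus overlaps RABGGTB by 1379 bases, and RABGGTB had 73.6% of its counts. Without a known strand of counting, reads from that overlap cannot be assigned to ACADM or RABGGTB. ACADVL, for very long chains, was at 11.1 to 11.7 FPKM in siControl and 11.9 to 12.4 FPKM in siNAMPT, with a log2 fold change of 0.08 (SE 0.05) that was not called.

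The middle and last steps of the cycle gave 3 of 6 members higher (beside 20.8% of all genes tested). HADHA and HADHB code for the alpha and beta subunits of the mitochondrial trifunctional protein, which carries out hydration, the second dehydrogenation and thiolysis of long chains. HADHA (chromosome 2, 26190635 to 26244726) was at 112, 111 and 109.6 FPKM in siControl and 138, 136 and 131 FPKM in siNAMPT. HADHB (chromosome 2, 26243170 to 26290468) was at 21.6, 23.3 and 19.9 FPKM in siControl and 34.7, 38.6 and 40.4 FPKM in siNAMPT. Both subunits had all siNAMPT libraries above all siControl libraries. HADHA rose by 20.5% (log2 fold change 0.27, SE 0.05, edgeR adjusted p = 0.00288). HADHB rose by 72.6% (log2 fold change 0.79, SE 0.08, edgeR adjusted p = 0.000299), the steepest rise among the 18 shuttle and oxidation members. The ratio of HADHB to HADHA was 0.194, 0.210 and 0.182 in siControl and 0.252, 0.283 and 0.307 in siNAMPT. It was higher in 3 of 3 siNAMPT libraries, by 0.52 on the log2 scale (exact two-sided permutation p = 0.1, the smallest that 3 against 3 allows, adjusted p = 0.125 over 5 ratios). With any 1 library left out the log2 difference was 0.45 to 0.60.

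**Figure D3:**
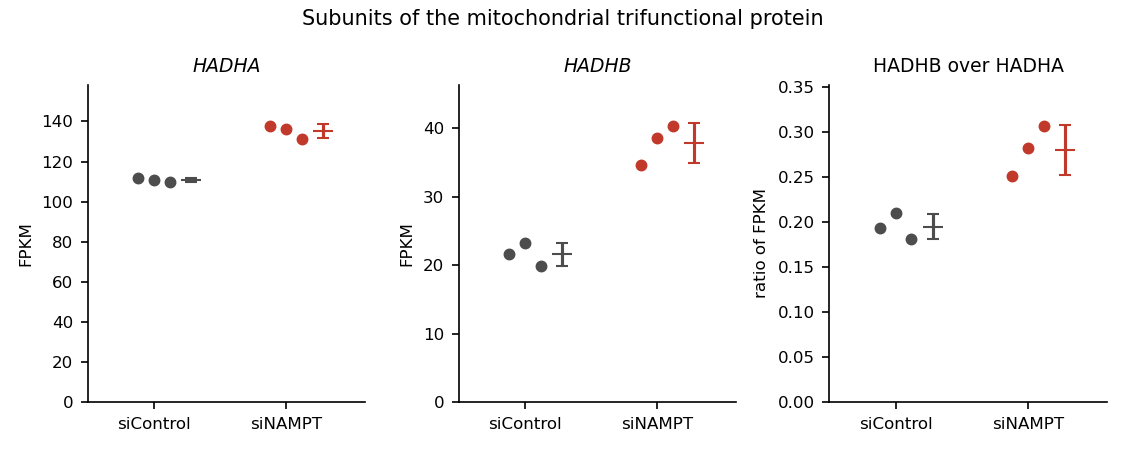
FPKM of HADHA (left) and HADHB (middle) and the ratio of HADHB to HADHA (right) in each of the 3 siControl and 3 siNAMPT libraries, with points for libraries and bars for the mean and SD. In each panel every siNAMPT point lies above every siControl point, and the gap is wider for HADHB than for HADHA relative to its level.

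The HADHA and HADHB genes lie head to head. Their RefSeq starts, at bases 26244632 on the minus strand and 26244939 on the plus strand of chromosome 2, are 307 bases apart, and their 300-base promoter windows share 194 bases. Of the stretch between them, the 250 bases before the HADHB RefSeq start are shown, because both genes changed in the same direction but by different amounts. This part lies at chr2:26244689-26244938 (+, GRCh38.p14, RefSeq), with GC boxes in capitals. It falls inside the HADHB locus given above, and its first bases also fall inside the HADHA locus.
HADHB: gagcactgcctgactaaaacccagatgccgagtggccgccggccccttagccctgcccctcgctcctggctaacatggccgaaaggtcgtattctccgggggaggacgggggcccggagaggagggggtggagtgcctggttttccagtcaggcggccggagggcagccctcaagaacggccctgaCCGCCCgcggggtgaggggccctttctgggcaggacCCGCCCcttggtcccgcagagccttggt
The printed part held 2 GC boxes, at bases 187 and 223, and no CCAAT box. The annotated loci overlap by 1557 bases, and without a known strand of counting, reads from that overlap cannot be assigned to one subunit.

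HADH, the dehydrogenase of medium and short hydroxyacyl chains, was at 10.2, 11.5 and 11.4 FPKM in siControl and 12.5, 13.7 and 13.8 FPKM in siNAMPT. HADH rose by 18.9% (log2 fold change 0.25, SE 0.07, edgeR adjusted p = 0.0236), with separate groups. The call was lost without siControl 1, siNAMPT 2 or siNAMPT 3 (edgeR adjusted p = 0.0642 to 0.0796). ECHS1, the short-chain hydratase, was abundant, 78.7 to 84.6 FPKM in siControl and 84.2 to 91.7 FPKM in siNAMPT. Its groups overlapped, and the log2 fold change of 0.06 (SE 0.07) was not called. The peroxisomal thiolase gene ACAA1 had a log2 fold change of 0.17 (SE 0.09) with overlapping groups and was not called. The mitochondrial thiolase gene ACAA2 was barely detected, at 0.0996, 0.127 and 0.0859 FPKM in siControl and 0.0833, 0.0734 and 0.0768 FPKM in siNAMPT, on 10 to 19 counts per library. ACAA2 was the only 1 of the 18 shuttle and oxidation members with a negative log2 fold change (-0.43, SE 0.27), and it was not called.

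Unsaturated chains need isomerases and a reductase before they can pass through the cycle. ECI1, the mitochondrial enoyl-CoA isomerase, was at 3.53, 3.98 and 3.77 FPKM in siControl and 6.02, 5.31 and 5.72 FPKM in siNAMPT. The groups were well apart, and ECI1 rose by 49.2% (log2 fold change 0.58, SE 0.09, edgeR adjusted p = 0.00159). ECI2, a second isomerase found in mitochondria and peroxisomes, had overlapping groups, 8.00 to 8.63 FPKM and 8.23 to 9.17 FPKM, and was not called (log2 fold change 0.07, SE 0.07). DECR1, the mitochondrial dienoyl-CoA reductase, was at 4.66 to 5.72 FPKM in siControl and 5.92 to 7.33 FPKM in siNAMPT. The groups did not overlap, yet the log2 fold change of 0.28 (SE 0.11) was not called (edgeR adjusted p = 0.0690). The DECR1 locus overlaps NBN by 1824 bases, and NBN had 142% of its counts. Without a known strand of counting, reads from that overlap cannot be assigned to DECR1 or NBN.

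Electron transfer from the acyl-CoA dehydrogenases to the respiratory chain runs through the flavoprotein of ETFA and ETFB and the dehydrogenase of ETFDH. ETFA was at 10.1, 10.7 and 11.4 FPKM in siControl and 12.9, 13.3 and 13.4 FPKM in siNAMPT. ETFA rose by 21.5% (log2 fold change 0.28, SE 0.06, edgeR adjusted p = 0.00735), with no overlap of the groups. ETFB, the partner subunit, was at 13.96, 13.2 and 13.1 FPKM in siControl and 16.9, 14.5 and 15.0 FPKM in siNAMPT. Its groups were also separate, with siNAMPT 1 highest, and the log2 fold change of 0.18 (SE 0.08) was not called (edgeR adjusted p = 0.103). A difference between the subunits was not detected: the ratio of ETFA to ETFB overlapped between groups (0.721 to 0.866 and 0.760 to 0.922, log2 difference 0.11, exact two-sided permutation p = 0.5, adjusted p = 0.5 over 5 ratios). ETFDH had separate groups, 3.23 to 3.58 FPKM and 3.68 to 3.90 FPKM, and a log2 fold change of 0.12 (SE 0.07) that was not called. The ETFDH locus overlaps PPID by 490 bases and C4orf46 by 131 bases, genes with 212.5% and 96.8% of its counts. Without a known strand of counting, reads from these overlaps cannot be assigned to 1 gene. The 4 ratios other than HADHB to HADHA were chosen after values had been seen.

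The receptors and the droplet coat gave no member higher and 1 of 4 lower (beside 20.8% and 21.9% of all genes tested). PPARG, the nuclear receptor known as the master regulator of fat storage (chromosome 3, 12287368 to 12434356), was at 4.74, 4.75 and 4.796 FPKM in siControl and 2.53, 2.89 and 2.88 FPKM in siNAMPT. The siControl libraries agreed closely and all siNAMPT libraries lay far below them. PPARG fell by 42.8% (log2 fold change -0.81, SE 0.07, edgeR adjusted p = 0.000186). PPARD, the widely expressed receptor, was at 6.44, 6.81 and 6.77 FPKM in siControl and 6.21, 6.09 and 5.86 FPKM in siNAMPT. Its groups were separate by a small gap, and the log2 fold change of -0.16 (SE 0.06) was not called (edgeR adjusted p = 0.0790). PPARA, the receptor that drives oxidation genes in liver, was low and uneven, at 0.435, 0.137 and 0.147 FPKM in siControl and 0.240, 0.163 and 0.429 FPKM in siNAMPT. One library of each group stood well above the others, and no direction can be read from the log2 fold change of 0.19 (SE 0.51). PLIN2, which coats lipid droplets and is a common PPAR target, had overlapping groups, 1.08 to 1.32 FPKM and 1.11 to 1.146 FPKM, and was not called (log2 fold change -0.09, SE 0.11).

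Within the 3′ untranslated region of PPARG lies the word ACCATA, a word chosen with the values of these libraries known, because genes that hold it were lower. Over 12248 tested genes with an annotated region (GENCODE 29), 2741 held the word, of which 410 were called higher and 1080 lower. Of the 9507 genes without it, 2159 were called higher and 1965 lower. The word-bearing regions were also longer, with a median of 2836 bases against 828. Only 4 of the 35 members with such a region (11.4%, against 22.4% of tested genes) held the word: PPARG, ELOVL6, ACSL4 and ETFA. In PPARG and ELOVL6 it is extended to TACCATA, and their sites are shown with the word in capitals because 1 of these genes fell and the other was not called. They lie at chr3:12434321-12434346 (+) for PPARG and chr4:110048235-110048260 (-) for ELOVL6 (GRCh38).
PPARG: attaaaaatTACCATAttatgaaatt
ELOVL6: aagagtaacTACCATAttacatctaa
Of the 4 members with the word, 1 rose (ETFA) and 1 fell (PPARG). The 31 members without it held 13 of the 14 higher calls and 3 of the 4 lower calls. The part of the word in the PPARG value was not tested.

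Promoter windows of 300 bases (250 before and 50 after each RefSeq start) were matched for 32 of the 36 members. DECR1, ETFDH, FASN and ACAA1 had no match. Each motif was read on both strands, and the share among members is given beside that among the 10505 tested genes with a window. A gene was counted where any of its windows held the motif, so genes with several starts had more chances. The 32 members had 52 windows, and all 27305 genes with a window had 35116. GC boxes (GGGCGG) occurred in 27 members (84.4%), against 76.0% of tested genes. CCAAT boxes (CCAAT) occurred in 15 members (46.9%), against 43.4%. The sterol response core TCACCCCA was found in 2 members, ACAA2 and ACSL1 (6.25% against 1.89%), the ACSL1 match being in another start's window than the one printed. The E-box CACGTG was found in ELOVL5 and PLIN2 (6.25% against 12.4%). The PPAR half-site AGGTCA was found in 4 members, ACACA, ACSL5, ELOVL6 and PPARG (12.5% against 13.6%), and can overlap the full element. The spaced PPAR element AGGTCANAGGTCA was found in no member window and in 0.048% of tested genes. The FOXO element GTAAACA was found in ELOVL6 alone (3.13% against 3.59%). A match only describes these letters.

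Genes around the members were read from 10 lists of lipid and related pathways, chosen with earlier results of these data known. They hold 149 symbols in all, of which 148 were in the table and 120 were tested. Of these, 40 were called higher (33.3%, beside 20.8% of all genes tested) and 20 lower (16.7%, beside 21.9%), with a median log2 fold change of 0.09. The word ACCATA stood in the 3′ untranslated region of 11 of the 20 lower genes, 3 of 39 higher ones and 6 of 60 that were not called. Over all tested genes with such a region, 35.5% of the lower, 15.96% of the higher and 18.9% of the uncalled ones held it. The word had been chosen because its holders were lower in these libraries, so counts of it by call are no support for it. Regions with the word were also longer over all tested genes (median 2836 against 828 bases). Among genes named in the next paragraphs it is found in the lower MBTPS2, MCAT, DBI, EHHADH, ABHD5, NCOR1 and OXCT1 and in the higher CBR4 and ACSS3. Its part in these counts was not tested.

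Synthesis partners were mixed, and their counts stand beside 20.8% called higher and 21.9% called lower over all genes tested. Of 12 regulators of lipid synthesis 2 rose and 1 fell. MLXIP, a glucose-sensing transcription factor, rose from 2.92, 3.20 and 3.27 FPKM to 6.29, 6.04 and 6.16 FPKM (log2 fold change 0.96, SE 0.06, edgeR adjusted p = 4.67e-05). MBTPS1 and MBTPS2 code for the site-1 and site-2 proteases that release the SREBP transcription factors, and they moved in opposite directions. MBTPS1 had a log2 fold change of 0.25 (SE 0.07) and MBTPS2 of -1.39 (SE 0.11), the latter from 2.02 to 2.27 FPKM in siControl to 0.724 to 0.918 FPKM in siNAMPT. Of 10 elongation and desaturation partners 2 rose, SCD5 (log2 fold change 0.36, SE 0.08) and the dehydratase HACD2 (0.24, SE 0.05). DEGS1, which desaturates dihydroceramide, fell by 0.66 on the log2 scale (SE 0.08). Mitochondrial fatty acid synthesis, which makes the precursor of lipoic acid, had 3 of 10 genes higher, with CBR4 (log2 fold change 0.61) and HSD17B8 (0.49) named. These 2 genes code for partners of 1 ketoacyl reductase. In that list 2 genes fell, MCAT (-0.43) and LIPT2 (-0.39).

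Uptake, binding and other activation had 5 of 12 genes higher (41.7%) and 4 lower (33.3%), beside 20.8% and 21.9% of all genes tested. The fatty acid binding protein FABP5 fell from 6.52, 6.83 and 7.24 FPKM to 2.00, 1.91 and 1.78 FPKM (log2 fold change -1.87, SE 0.10, edgeR adjusted p = 2.52e-05). DBI, the acyl-CoA binding protein, fell from 32.9, 32.7 and 31.9 FPKM to 17.7, 16.3 and 18.3 FPKM (log2 fold change -0.92, SE 0.06, edgeR adjusted p = 5.02e-05). Both binding proteins were lower in every siNAMPT library. Among those that rose were ACSS3, a mitochondrial short-chain synthetase (log2 fold change 0.81, SE 0.08), and the transporter SLC27A4 (0.28, SE 0.07).

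The list named other mitochondrial oxidation, which holds no members, had 9 of 19 genes higher (47.4%, beside 20.8% of all genes tested). In it 1 was lower (5.26%, beside 21.9%). The list also takes in genes of amino acid and propionate breakdown, acyl-CoA thioesterases and a peroxisomal gene. Its median log2 fold change of 0.28, beside 0.22 for the 18 shuttle and oxidation members, is therefore not one of fatty acid oxidation alone. ACAD10, of the acyl-CoA dehydrogenase family, rose by 0.92 on the log2 scale (SE 0.07) and ECH1, a dienoyl-CoA isomerase, by 0.75 (SE 0.07). In the carnitine list 2 of 7 rose and none fell, CROT, the peroxisomal octanoyltransferase, by 0.36 (SE 0.08). Peroxisomal oxidation had 5 of 14 higher and 2 lower. CAT, the catalase that removes the hydrogen peroxide this pathway makes, rose by 0.66 on the log2 scale (SE 0.05). ABCD3, the importer of branched and dicarboxylic chains, fell by 0.38 on the log2 scale (SE 0.08), and the bifunctional enzyme EHHADH fell by 0.46 (SE 0.15).

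Triglyceride and droplet genes had 5 of 19 higher (26.3%) and 4 lower (21.05%), a split near that of all genes tested (20.8% and 21.9%). PNPLA3 (log2 fold change 0.76, SE 0.13) and HILPDA, an inhibitor of the main triglyceride lipase (0.67, SE 0.09), rose. ABHD5, the activator of that lipase (-0.64, SE 0.12), and GPAM, which starts glycerolipid synthesis (-0.61, SE 0.09), fell. Among PPAR partners and targets 5 of 12 rose and 3 fell. RXRA, the partner of all PPAR receptors, rose from 35.1, 34.1 and 34.0 FPKM to 60.4, 53.8 and 55.2 FPKM (log2 fold change 0.70, SE 0.06, edgeR adjusted p = 0.000149). TXNIP rose 3.72-fold (log2 fold change 1.89, SE 0.06). The corepressor NCOR1 fell by 0.92 (SE 0.06) and the coactivator PPRC1 by 0.41 (SE 0.06). Of 5 ketone body genes 2 rose and 2 fell. BDH2 rose (log2 fold change 0.95, SE 0.11), and OXCT1, an enzyme of ketone use, fell (-0.37, SE 0.11).

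**Figure D4:**
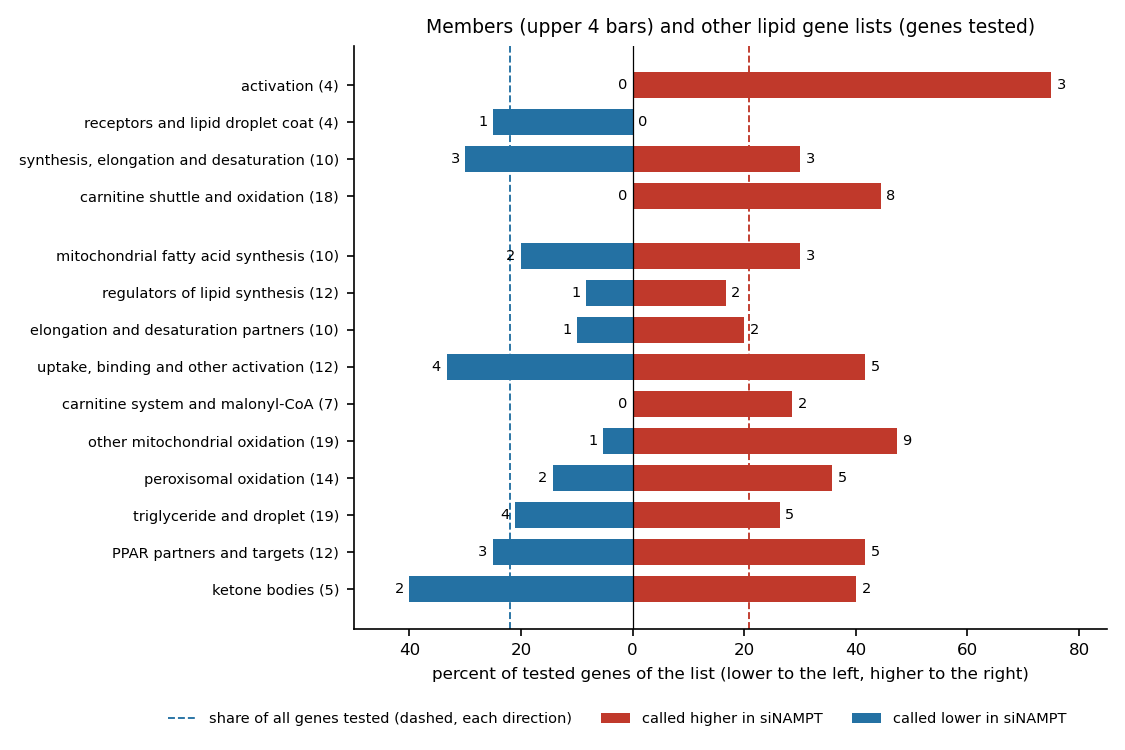
Share of tested genes called higher (red, to the right) and lower (blue, to the left) in siNAMPT for the members by role (upper 4 bars) and the 10 other lipid lists, with counts of genes at the bar ends and the number tested in brackets; dashed lines give the shares over all genes tested, 20.8% and 21.9%. The bar of the carnitine shuttle and oxidation, which includes peroxisomal ACAA1, reaches 44.4% higher with none lower.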

How the data were processed

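Messenger RNA was isolated from total RNA of B4G12 cells and sequenced as paired ends, per the labels' protocols. The authors deposited 1 table with raw counts per gene and FPKM per gene for each of the 6 libraries, per the file headers. The deposited FPKM equal the count divided by 1 gene length and the library total (largest relative deviation 1.7e-05). GRCh38 and mm10 are named in the submitters' processing notes, and the 36 members' positions match GENCODE 29 on GRCh38. Aligner, counter, strand setting and annotation: not given in the sources used here.

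Deposited counts were tested with edgeR 4.0.16 (R 4.3.3): filterByExpr (minimum count 10) left 15213 genes, with TMM factors of 0.988 to 1.02, and glmQLFit and glmQLFTest compared siNAMPT with siControl without a block. P-values were two-sided, adjusted by Benjamini-Hochberg over all genes tested, with a threshold of 0.05. The SE is the log2 fold change divided by the square root of the F statistic. The script was tested on simulated counts. Levels are given as deposited FPKM. All members were named, and of each pathway list up to 2 genes called higher and 2 called lower with the largest fold changes, where the group with the higher mean reached 1 FPKM. Some genes that this rule names are not reported here. The members and lists were chosen with earlier results of these data known. Alternatives were DESeq2 1.42.0, limma 3.58.1 on log2(FPKM + 1) and log2(FPKM + 0.1), DESeq2's size factors in edgeR, no filter, a replicate block and leaving out each library.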

Additional observations from a re-analysis of the deposited data

How the results depend on the processing

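Of the 18 called members, 11 kept their call in all 12 alternatives: ACACA, SCD, ACSL1, ACSL5, HADHA, HADHB, ECI1 and ETFA higher, and ELOVL5, FADS1 and PPARG lower. The other 7 calls were lost when at least 1 library was left out. The count of members called higher was 14, and it was 9 to 12 with 1 library left out, 11 with no filter on low counts, and 14 to 15 under DESeq2, DESeq2's size factors, limma and the replicate block. Members called lower numbered 3 or 4 throughout. Fewer libraries entered each such fit, and the cause of single lost calls was not tested. The members FASN, FADS2 and PPARA, which were not called, changed sign with 1 library left out: FASN ranged from -0.0044 to 0.0889 on the log2 scale, FADS2 from -0.0323 to 0.0981 and PPARA from -0.2584 to 0.9526. With the replicate number as a block, 15 members were called higher and 4 lower (over all genes 3063 and 3273), and ACADM was gained. Deviations of same-numbered libraries correlated at 0.07, 0.008 and 0.054, and those of differently numbered ones at -0.075 to 0.025. With 3 libraries per group these values cannot decide whether a number marks a shared culture or day, and no label says so. Among the pathway genes named, the calls of LIPT2, EHHADH, OXCT1 and MBTPS1 were lost under some alternatives (highest adjusted p, by edgeR, DESeq2 or limma, 0.149, 0.123, 0.106 and 0.0632). No filter on low counts also ended the calls of ACACB, CPT1A and ACADS, and DESeq2 that of ACACB. The depth behind ACAA2 was 10 to 19 counts per library and behind ACACB 63 to 104. Limma's filter left out ACACB, FADS2, ACAA2 and PPARA.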
